A study of Mus musculus with 10 samples.

Results

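H3K4me3 islands that were called in BAF250a knockout (KO) mouse embryonic stem cells and not in wild-type (WT) cells are described here. They lie at places where no H3K27me3 island was called. An island is an interval in which ChIP reads exceed input reads. The members were chosen by the deposited island calls. They are autosomal KO H3K4me3 islands under 10 kb wide that overlap no WT H3K4me3 island and no H3K27me3 island of either genotype by 1 bp. Of 40978 KO H3K4me3 islands, 15393 were members (37.6%, 95% interval 37.1 to 38.0%). In the whole KO list 40.4% of islands lacked a WT island, and among autosomal islands under 10 kb the share was 43.8%. They were divided by the distance to the nearest WT H3K4me3 island into 4678 near members, within 5 kb, and 10715 isolated members, farther away. The WT H3K4me3 call was used to choose them, so their absence from WT is a description and supports nothing.

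H3K4me3 is deposited by the SET1 and MLL methyltransferase complexes and marks active and poised promoters, with weaker signal at some active enhancers. H3K27me3 is laid down by Polycomb repressive complex 2, and in embryonic stem cells it sits with H3K4me3 at many promoters of developmental genes, which are then called bivalent. BAF250a, encoded by Arid1a, is a DNA-binding subunit of the BAF (SWI/SNF) remodelling complex, which moves and evicts nucleosomes with energy from ATP. Members lie outside the deposited H3K27me3 domains and outside the H3K4me3 islands of WT cells. H3K27me3 too weak to be listed could not be seen at them.

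The cells were of 129/C57BL/6 strain and were grown with LIF on fibroblast feeders. KO cells received 1 µM 4-OH tamoxifen for 36 hours from 4 hours after passage, and WT cells received ethanol for as long. Genotype and drug exposure therefore cannot be told apart. The sources used here do not give the allele, the recombinase, any removal of feeder cells, or whether WT and KO cells are the same line. Each genotype had 1 H3K4me3 library and 1 H3K27me3 library, with no replicates. Differences between WT and KO hence compare libraries, not conditions, and none has a replicate check. Intervals in the text treat islands as independent draws and do not cover the spread between cultures.

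The KO H3K4me3 library was more strongly enriched at shared sites. At 833 autosomal intervals under 10 kb with the same ends in both lists and no H3K27me3, pooled enrichment over input came to 3.74-fold for WT and 6.21-fold for KO. The KO library held 1.22 times as many ChIP reads there, and input reads were 0.973 times as many. The fold is also divided by a constant of each list, taken as the ratio of ChIP to input depth. It was 1.78 for WT and 1.35 for KO, which adds to the difference in fold. These constants enter every ratio of KO to WT fold given here. The part of this difference between libraries in the number of members was not tested. A place without a WT island has no WT read count in the lists, so no member has a WT level and no fold change between genotypes can be given for a member.

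Members were small, weakly enriched islands. Their median width was 1200 bp, with the middle 50% between 800 and 1800 bp, and they held a median of 47 ChIP reads (35 to 70) against 16 input reads. Their median fold over input was 2.34 (95% interval 2.32 to 2.36) and their median read density 38.8 reads per kb. Shared narrow islands, the 17738 autosomal KO islands under 10 kb that overlap a WT island and no H3K27me3, had a median of 208 ChIP reads over 3200 bp, 76.7 reads per kb and 4.85-fold over input. Input density was alike, 12.5 reads per kb at members and 11.9 at shared narrow islands. An input density over 3 times the median of the list was found at 8 of the 15393 members (0.0520%), near the 0.0659% of all KO islands. All members together covered 23.8 Mb with 941585 ChIP reads, 6.97% of the reads in KO islands, at a pooled fold of 2.35.

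A fold of 2 or more over input was reached by 10134 members (65.8%), against 83.7% of all KO H3K4me3 islands and 95.1% of shared narrow islands. An adjusted p-value (FDR, as deposited) of 1e-05 or lower was carried by 10350 members (67.2%), against 85.1% of all KO islands. At the other end, 840 members (5.46%) had an FDR over 0.01, close to the limit of 0.05 for being listed, as did 2.43% of all KO islands and 0.406% of shared narrow islands. A fold of 4 or more was found at 1941 members (12.6%), at 44.2% of all KO islands and at 62.7% of shared narrow islands. Most members thus lay at low values, and a minority reached the 4-fold that most shared narrow islands exceed.

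**Figure D1:**
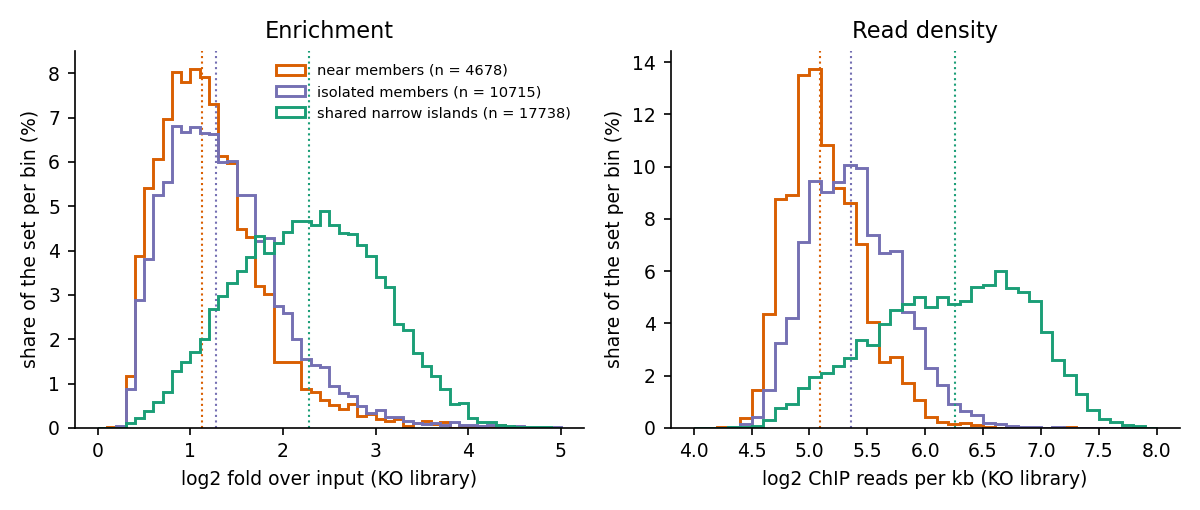
Distribution of log2 fold over input (left) and log2 ChIP reads per kb (right) in the KO H3K4me3 library for near members, isolated members and shared narrow islands, as the share of each set per bin; dotted lines are medians. Both groups of members lie to the left of shared narrow islands, whose median fold is 4.85 against 2.19 for near and 2.42 for isolated members; islands beyond the axes are not drawn.

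The share of KO islands without a WT partner depended steeply on their strength. Autosomal KO islands under 10 kb without H3K27me3 were ordered by ChIP reads and cut into 5 equal parts. Members made up 86.2% of the part with fewest reads (16 to 40 reads) and 75.1% of the next. In the middle part, with 63 to 115 reads, they made up 50.8%, then 19.6% of the islands with 115 to 367 reads, and 0.513% (34 of 6626) of the islands with 367 reads or more. Ordered by fold over input, the shares ran from 85.3% in the lowest part to 8.86% in the highest, where 587 members had a fold of 6.14 or more. Among all members, 22 (0.143%) had no input read, against 0.0952% of all KO islands. The fold of these 22 rests on the value of 0.25 put in its place.

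**Figure D2:**
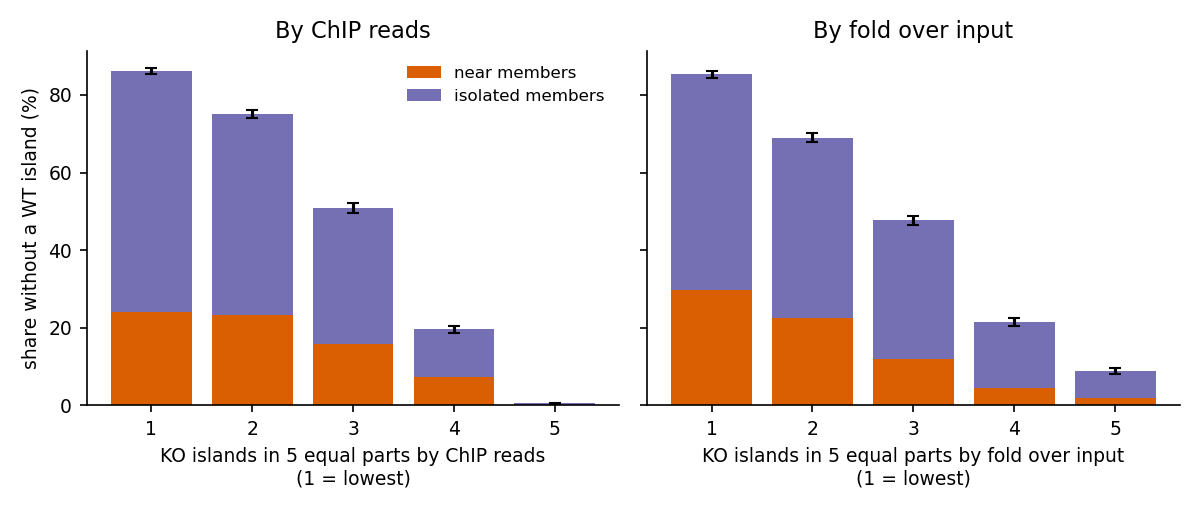
Share of autosomal KO H3K4me3 islands under 10 kb without H3K27me3 that have no WT island, in 5 equal parts by ChIP reads (left) and by fold over input (right), split into near and isolated members; bars on top are 95% exact binomial intervals. By reads the share goes from 86.2% to 0.513%, by fold from 85.3% to 8.86%.

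Shared islands with as few KO reads as the members can be measured in both genotypes. Among 1-to-1 pairs of a WT and a KO island, 2087 narrow pairs without H3K27me3 had 35 to 70 KO reads, the middle 50% of the members. Their KO fold had a median of 3.18 (3.09 to 3.24) and their WT fold 2.14 (2.08 to 2.17), with a median of 36 WT reads over 800 bp. The 7866 members with 35 to 70 reads had a median KO fold of 2.23 (2.20 to 2.23), below that of these pairs. Matched in reads only, the pairs were more enriched and do not show where members stand in WT. On the log2 scale, KO exceeded WT by a median of 0.46 (0.43 to 0.50) in these pairs and 0.72 (0.71 to 0.73) in the 12690 pairs with more KO reads. Pairs were divided by KO reads, which enter this ratio, and each needed a WT call. The order of the 2 values is therefore partly set by the choice of pairs. The WT list holds no island with fewer than 15 reads, so weaker WT sites could not be seen.

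The number of members went down with distance from WT islands, without a break at 5 kb. The length of genome available at each distance was not counted, so these are counts and not densities. There were 1423 members within 1 kb of a WT island, 115 of them adjoining it, then 1039 from 1 to 2 kb and 842 from 2 to 3 kb. The count was 627 from 4 to 5 kb, 575 from 5 to 6 kb and 178 from 19 to 20 kb, so it fell off smoothly across the limit. The median distance of all members was 12.2 kb (11.8 to 12.6 kb), and 1505 members were over 100 kb from any WT island. The 722 KO-only narrow islands that did overlap H3K27me3, and so were no members, had the same median distance, 12.2 kb (10.2 to 15.2 kb).

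Read density went up with distance from WT islands. The median was 33.0 reads per kb (32.5 to 33.7) within 1 kb, 37.0 (36.3 to 37.5) from 5 to 10 kb, 41.3 (40.8 to 41.7) from 20 to 50 kb and 48.3 (47.5 to 50.0) from 100 to 500 kb. Fold over input was 2.23 within 1 kb, 2.18 from 5 to 10 kb and 3.13 (3.04 to 3.22) from 100 to 500 kb, where 29.0% of 1441 members had a fold of 4 or more. Members narrowed along the same axis, from a median of 1400 bp within 1 kb to 800 bp beyond 100 kb, and a narrow island needs a higher density to be listed. At one width, 1000 to 1400 bp, the order held, with 32.0 reads per kb within 1 kb (n = 564) and 44.1 (42.9 to 45.0) from 100 to 500 kb (n = 480). Their folds were 2.23 (2.16 to 2.33) and 2.97 (2.82 to 3.14).

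**Figure D3:**
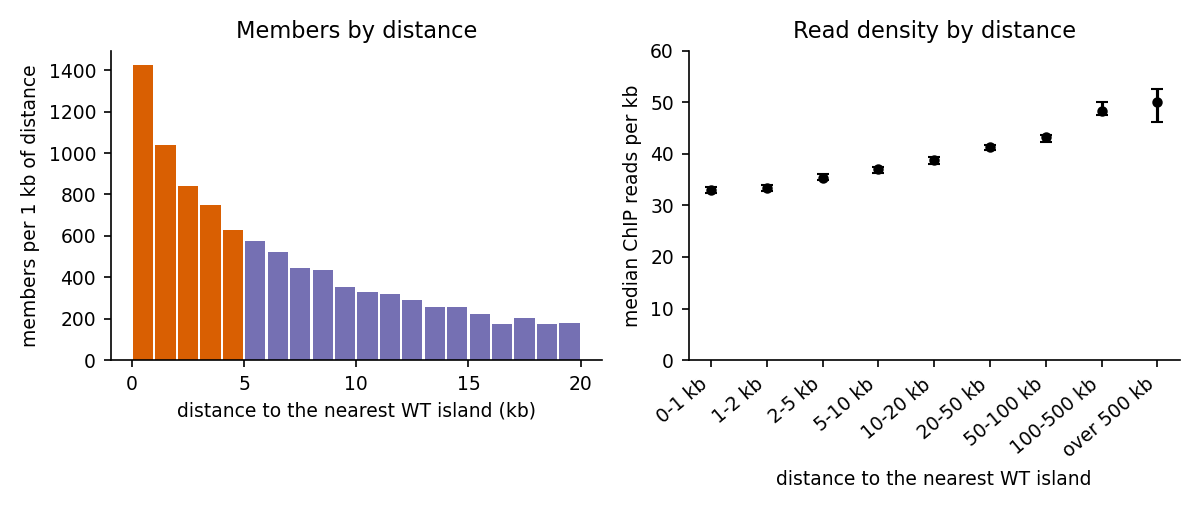
Members per 1 kb of distance to the nearest WT H3K4me3 island (left; near members orange, isolated members violet) and their median KO ChIP reads per kb by distance, with 95% rank-based intervals (right). The count goes down from 1423 to 178 over 20 kb with no step at 5 kb, and the median density goes up from 33.0 to 48.3 reads per kb between the first and the 100-500 kb class.

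Near members mostly lay beside a KO island that WT shared, which the distance rule nearly fixes, since 94.7% of all autosomal WT islands overlapped a KO island. Of the 4678, 4571 (97.7%) had a KO island overlapping WT within 5 kb, and for 3919 (83.8%) the closest KO island was such a shared one. In 1692 (36.2%), against 15.4% of all autosomal KO islands under 10 kb, the closest KO island began 400 bp away, which is the smallest gap in the list, since windows up to 200 bp apart were joined by the authors. Near members had a median of 48 reads over 1600 bp, 34.2 reads per kb (34.0 to 34.4) and 2.19-fold over input (2.17 to 2.23). They were wider than isolated members but less dense, and 8.72% of them reached a fold of 4, against 14.3% of isolated members.

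The WT islands beside near members were wide ones. In all, 4070 of 27207 autosomal WT islands (15.0%) were the nearest neighbour of a near member, 3514 of 1 member, 506 of 2 and 50 of 3 or 4. A KO island overlapped 3938 of them (96.8%), against 94.7% of all autosomal WT islands. H3K27me3 lay on 134 of them (3.29%) and on 12.4% of all autosomal WT islands, while the near members themselves were chosen without it. Among 1-to-1 pairs, 6.28% of WT islands under 1 kb had a near member (5.34 to 7.33%), 11.0% of those of 1 to 2 kb, 15.7% of those of 2 to 5 kb and 24.4% of those of 5 kb or wider (23.2 to 25.6%). The median WT width was 3800 bp in the 2944 pairs with a near member and 2400 bp in the 16097 without.

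At these neighbouring islands both genotypes can be measured. With a near member, the median fold was 3.21 in WT and 5.25 in KO, and without one 2.78 and 4.71. KO was higher in 92.8% of pairs with a near member (91.8 to 93.7%), against 90.8% of all 19041 pairs. The median log2 ratio of KO to WT fold came to 0.67 (0.65 to 0.69) with a near member and 0.68 (0.67 to 0.69) without, with overlapping intervals. By width the order of the 2 sets changed. In WT islands under 1 kb the ratio was lower with a near member, 0.31 (0.20 to 0.39, n = 149) against 0.65 (0.61 to 0.70), and in those of 5 kb or wider it was slightly higher, 0.65 (0.63 to 0.67) against 0.58 (0.57 to 0.60). KO islands were wider than their WT partner in 77.8% of pairs with a near member (76.3 to 79.3%) and in 69.5% without (68.8 to 70.2%), by a median of 800 and 400 bp.

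The extra width of the KO islands did not lie mainly on the side of the member. In 2683 pairs with members on 1 side, the KO island reached past the WT end by a median of 200 bp (200 to 400 bp) on the side of the member and 400 bp on the other. It reached farther on the member's side in 1173 pairs, farther on the other side in 1255 and equally far in 255. At ends of pairs without a near member the median overhang was 200 bp. The KO islands reached beyond the WT end at 63.5% of member sides, 66.0% of opposite sides and 57.5% of the other ends. Had the gap been smaller, the member would have been part of the shared island, so a short overhang on its side is partly fixed by the rule.

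The 5 near members with most reads show the range. The first, at chromosome 17, 29581601 to 29589600, was 8 kb wide with 657 ChIP and 125 input reads, 3.91-fold, and lay 3.6 kb from a WT island of 5.8 kb with a fold of 1.66. At chromosome 8, 86696201 to 86700600, a member of 4.4 kb held 478 reads at 108.6 reads per kb and 7.72-fold, and the WT island 0.4 kb away had 68.6 reads per kb and 1.91-fold. These 2 folds come from different libraries and places, and KO folds were higher at shared sites too, so they are not a like comparison. Chromosome 1, 182850601 to 182859000, held 511 reads at 3.06-fold. Reads numbered 465 (3.68-fold) at chromosome 17, 29985601 to 29992200, and 450 (2.68-fold) at chromosome 4, 132605601 to 132614400. The WT islands beside them had folds of 2.81, 2.00 and 3.53.

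Most isolated members had no KO island close by. The nearest other KO island was over 10 kb away for 5808 of 10715 (54.2%), and 7690 (71.8%) had none within 5 kb. Of all autosomal KO islands under 10 kb, the shares were 44.1% and 56.0%. The rule sets part of this, as it keeps isolated members away from WT islands, which most KO islands overlap. Another 615 isolated members (5.74%) lay within 5 kb of a KO island that overlaps WT, being beside a shared domain that reaches farther in KO than in WT. These 615 resembled near members, with 34.3 reads per kb (33.6 to 35.0) and 2.21-fold (2.12 to 2.32), whereas the 7690 without any KO neighbour had 43.1 reads per kb (42.5 to 43.3) and 2.53-fold (2.50 to 2.56). As a whole, isolated members had a median of 46 reads over 1200 bp, 41.2 reads per kb (40.8 to 41.3) and 2.42-fold (2.39 to 2.44).

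The isolated members with most reads were several kb wide. At chromosome 8, 122854001 to 122862000, 774 ChIP and 142 input reads gave 4.05-fold over 8 kb, 41.6 kb from the nearest WT island, itself 1 window of 16 reads. At chromosome 6, 120134801 to 120143600, 667 reads over 8.8 kb gave 3.14-fold, and at chromosome 11, 19958801 to 19966600, 565 reads over 7.8 kb gave 5.91-fold. Chromosome 12, 85889201 to 85896200, held 561 reads at 4.74-fold, 34.6 kb from a WT island. Chromosome 3, 86993001 to 87002800, held 522 reads at 3.13-fold. Their widths, 7 to 9.8 kb, exceed the 3200 bp median of shared narrow islands. By density, 53.3 to 96.8 reads per kb, 3 of the 5 lay below the shared median of 76.7, and by fold 4 of the 5 lay below 4.85. The nearest WT island was 13.0 kb or more from each of the 5.

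The highest folds, among isolated members with 10 or more input reads, went with low input density. Chromosome 3, 151894001 to 151897600, had 254 ChIP and 12 input reads over 3.6 kb, 15.7-fold. Chromosome 1, 133406601 to 133412200, had 417 and 22 reads over 5.6 kb, 14.1-fold. The input there was 3.33 and 3.93 reads per kb, below the member median of 12.5. The next were chromosome 1, 4815001 to 4818600, at 8.97-fold, chromosome 6, 3347401 to 3349600, at 8.42-fold, and chromosome 1, 45368601 to 45371400, at 8.24-fold, with 169, 136 and 133 ChIP reads. Their input densities, 3.89 to 5.45 reads per kb, were low as well, and the part of low input in these folds was not tested. In the order given, the nearest WT island was 12.2, 5.6, 11.8, 97.4 and 145.4 kb away. Those starting at 133406601 and 4815001 lay 3800 and 2600 bp from a KO island shared with WT.

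Some isolated members formed chains. No other KO island lay within 5 kb of 71.8% of isolated members, against 56.0% of all autosomal KO islands under 10 kb. Close neighbours were thus less common at isolated members than in the list, which the rule partly sets. Joined across gaps of up to 5 kb, 2291 isolated members (21.4%) fell into 964 chains of 2 or more. The share in chains was not counted for other KO islands, so 21.4% has no value to be set against. Of these chains, 237 had 3 or more members and 27 had 5 or more. The one with most members ran over 50.8 kb at chromosome 7, 123389801 to 123440600. Its 10 members covered 27.2 kb with 1027 ChIP reads, at 1.57 to 2.83-fold each and 2.27-fold together, and one end lay 400 bp from a KO island shared with WT. A chain of 8 members with 685 reads, 2.48-fold together, lay at chromosome 1, 138480201 to 138509400. Another of 8 with 541 reads, 2.77-fold together, lay at chromosome 8, 125493201 to 125519800. Member folds ran from 1.81 to 3.53 in the chain on chromosome 1 and from 2.07 to 3.61 in that on chromosome 8. A KO island shared with WT lay 3800 bp from the chain on chromosome 1 and 5400 bp from that on chromosome 8. The nearest WT island was 6.8, 9.8 and 5.2 kb from the chains on chromosomes 7, 1 and 8.

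**Figure D4:**
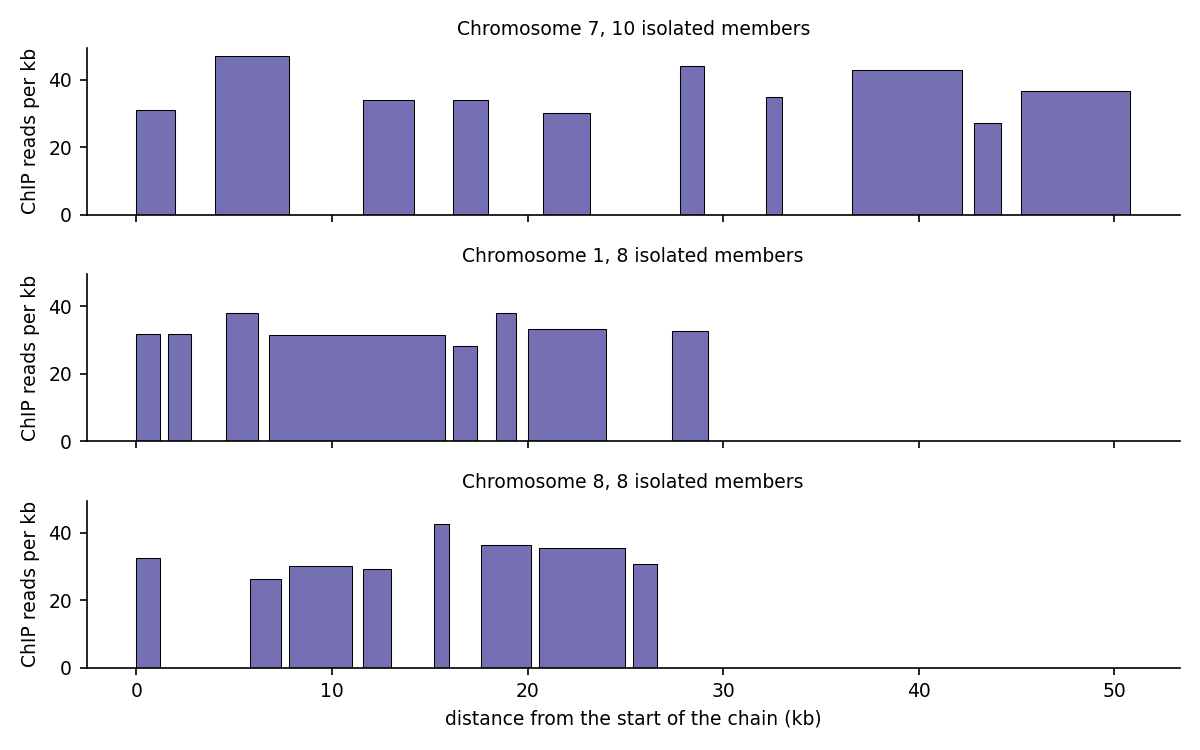
KO H3K4me3 ChIP reads per kb of the isolated members in the 3 chains with most members, each bar as wide as its island, against the distance from the start of the chain. The chains span 50.8, 29.2 and 26.6 kb with 10, 8 and 8 members.

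The members farthest from WT islands were small. The 3 farthest, all on chromosome 14, at 96594001 to 96594800, 96804201 to 96804600 and 95876201 to 95876800, lay 1971, 1761.2 and 1583.8 kb from a WT island. They held 39, 21 and 29 ChIP reads and were 3.62, 3.12 and 5.39-fold over input. In all, 7 members were over 1 Mb from a WT island.

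Members were more numerous where WT islands are dense, which for near members follows from the rule. In autosomal bins of 1 Mb with 20 or more WT islands (366 bins), there were on average 9.63 isolated and 7.50 near members, and in bins with 1 to 4 WT islands (629 bins) 2.09 and 0.0970. Isolated members per WT island went the other way, since these bins had 31.8 and 2.66 WT islands on average. The 37 bins with an island in another list and none in WT H3K4me3 held 73 members. Of the isolated members, 32.9% lay in bins of 20 or more WT islands and 12.2% in bins of 1 to 4.

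All autosomes contributed. The share of members among KO islands under 10 kb ran from 36.9% on chromosome 13 (34.5 to 39.3%) to 46.3% on chromosome 17 (44.0 to 48.7%). The share of members that were isolated ran more widely, from 59.1% on chromosome 7 (55.9 to 62.2%) to 80.6% on chromosome 1 (78.0 to 83.1%). Median fold ran from 2.16 on chromosome 17 to 2.60 on chromosome 14. Input density of members was 11.7 to 13.1 reads per kb across the chromosomes.

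**Figure D5:**
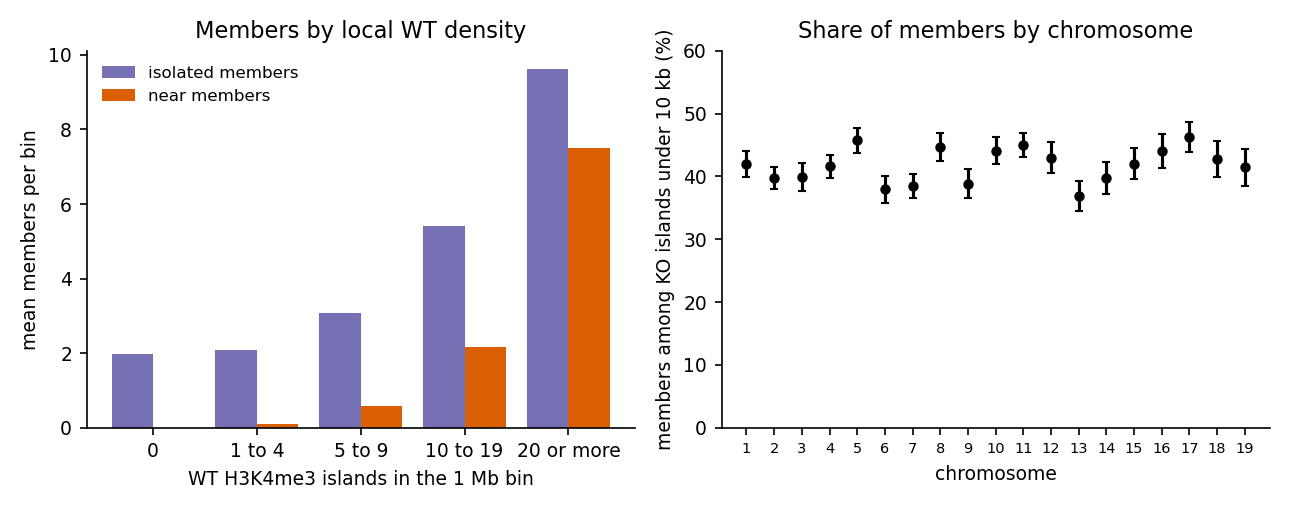
Mean number of isolated and near members per autosomal 1 Mb bin, by the number of WT H3K4me3 islands in the bin (left), and the share of members among KO islands under 10 kb by chromosome with 95% exact binomial intervals (right). Isolated members go from 2.09 to 9.63 per bin between bins of 1 to 4 and of 20 or more WT islands, and the chromosome shares lie between 36.9% and 46.3%.

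Members lay slightly farther from H3K27me3 than shared islands. The median to the nearest H3K27me3 island of either genotype was 143.8 kb (137.6 to 148.4) for near members, 148.4 kb (143.6 to 153.2) for isolated ones and 128.8 kb (125.6 to 131.6) for shared narrow islands. An H3K27me3 island lay within 5 kb of 3.48%, 3.01% and 3.79% of them. Removing overlap with H3K27me3 took 722 islands from the set, 592 for an island of the WT list and 526 for one of the KO list. Those 722 had a median of 57 reads, 41.4 reads per kb and 2.16-fold, and input density 14.2 reads per kb, above that of the members.

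The same rule with the genotypes exchanged found far fewer islands. Of 28365 WT H3K4me3 islands, 5.34% lacked a KO island, and 1153 met the width, chromosome and H3K27me3 conditions (4.06%), so members were 13.4 times as many. The excess was 5.57 times for near islands (840 in WT) and 34.2 times for isolated ones (313 in WT). WT-only islands had a median of 34 reads and 2.58-fold over input, and 27.1% were isolated (24.6 to 29.8%), against 69.6% of members (68.9 to 70.3%). Near WT-only islands had a median of 2.90-fold and isolated ones 1.97-fold. For members the order was the other way, with 2.19-fold near and 2.42-fold isolated. The counts depended on the length of the lists. With the KO list cut to its 28365 islands with most reads, there were 5788 members and 2682 WT-only islands, a ratio of 2.16, or 1.48 for near and 2.77 for isolated islands. The isolated share was then 67.6% and 52.8%. Input density at near WT-only islands was 6.25 reads per kb, against 12.1 over the whole WT list and 12.0 at near members. At isolated WT-only islands it was 10.0, against 12.7 at isolated members.

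The limits of the rule cut through continuous values. The widest members, at chromosome 3, 86993001 to 87002800, chromosome 19, 46904201 to 46914000, and chromosome 9, 121255601 to 121265400, were each 9800 bp wide with 522, 440 and 435 reads and folds of 3.13, 3.06 and 2.55. Just outside lay islands of 10200, 10400 and 10800 bp, at chromosome 1, 36953801 to 36964000, chromosome 19, 47399801 to 47410200, and chromosome 11, 116990401 to 117001200. They held 525, 613 and 520 reads, with 3.90, 2.81 and 2.56-fold enrichment. The width limit left out 14 islands that met every other condition.

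Along the distance limit, 3 of the near members 5000 bp from WT, at chromosome 9, 119917401 to 119923200, chromosome 12, 70978001 to 70983800, and chromosome 17, 37215201 to 37220200, had folds of 3.32, 3.73 and 2.40. Of those first counted as isolated, 5200 bp away, 3 were at chromosome 1, 7090001 to 7097200, chromosome 11, 8537601 to 8542600, and chromosome 5, 145977401 to 145982000. Their folds were 4.30, 2.77 and 2.45. The named islands are large ones and not typical of the limit. The near ones held 340, 306 and 220 reads, against a median of 51 for members 2 to 5 kb from WT. The isolated ones held 370, 272 and 185 reads, against a median of 52 for members at 5 to 10 kb. A KO island shared with WT began 400 bp from the first 2 of these isolated ones.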

How the data were processed

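ChIP libraries were aligned with Bowtie (version not stated) to mm9 and islands were called with SICER 1.1 against input, per the submitters' processing notes; the sources used here do not give read or duplicate filters. Windows of 200 bp, gaps of 200 bp (H3K4me3) or 600 bp (H3K27me3) and an FDR of 0.05 are given with the deposited lists. Each list gives the deposited ChIP and input read counts, the p-value and FDR by the authors, and the deposited fold ratio. The fold equals ChIP over input reads divided by 1 constant per list (1.78 for WT and 1.35 for KO H3K4me3), with 0.25 for an input count of 0. The constant is taken as the ratio of ChIP to input depth. Library totals are not in the lists, so this could not be checked. Read numbers are known only inside islands: 9565481 ChIP reads in WT and 13512350 in KO H3K4me3 islands.

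Positions are mm9 and 1-based, and the nearest distance counts the bases between islands. Medians have rank-based and shares exact binomial (Clopper-Pearson) 95% intervals; no p-value was computed, as there was 1 library per genotype and mark. These intervals treat islands as independent draws, although many islands lie close together. Reads without molecular identifiers may also repeat a molecule. The members, lists and rules were chosen with earlier results of these data known. Regions named are the 5 isolated and 5 near members with most reads, the 5 isolated members of highest fold with 10 or more input reads, the 3 chains with most members, the 3 members farthest from WT, and 3 on each side of both limits. Genes, sequence content and promoters were not analysed here, because the gene tables used are of another build. Python 3.11.15, numpy 2.4.6, pandas 2.3.3, scipy 1.17.1 and matplotlib 3.10.9 were used; bedtools 2.31.1 gave the same members (0 differed), and the classification was tested on 2000 planted islands (0 wrong). Effects of 10 alternative settings are given in the closing section. The nucleosome libraries were not analysed here, and input reads entered only as the control of each island.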

Additional observations from a re-analysis of the deposited data

How the results depend on the processing

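Alternatives were 10 settings for 5 results. In all, 33 values stayed within the interval of the result, or within 1.5 times its count, and 17 moved. Another distance cannot change the number or median fold of members, so those values stayed by construction. The wide limit for counts also let 10350 members, at an FDR of 1e-05 or lower, count as unchanged from 15393. Direction changed in 0 values, but only the ratio and the log2 value have a direction to change. Causes were not tested, except that a stricter limit shortens the list. With an FDR of 1e-05 or lower for KO islands, 71.3% of members were isolated and the median fold was 2.80. With a fold of 2 or more there were 10134 members, 72.0% isolated, with a median fold of 2.82. When islands counted as shared only from 50% of the shorter one, 68.4% were isolated. With the KO list as long as the WT list there were 5788 members, 67.6% isolated, the isolated over near ratio of median fold was 1.07 in place of 1.11, and the median log2 KO over WT fold beside near members was 0.71. With a distance of 2 kb, 84.0% were isolated and that log2 value was 0.69; with 10 kb, 54.5% were isolated and the ratio was 1.13. With the sex chromosomes the median fold was 2.36. With KO islands joined across gaps of up to 600 bp, 79.7% were isolated and the ratio was 1.13. Removing the width limit or islands of high input density moved none of the 5 results. The comparison of WT and KO rests on 1 library each, and WT sites too weak to be listed have no value. No paired analysis was possible because the libraries used have no replicates.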
